A study of Mus musculus with 15 samples.

Results

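The 8 genes described here encode metallothioneins and proteins that move zinc across membranes, and they are 8 of the 20089 genes with complete rows in the expression table. They are the metallothioneins Mt1, Mt2 and Mt3, the zinc-sensing transcription factor gene Mtf1, the zinc exporter gene Slc30a1, and the zinc importer genes Slc39a1, Slc39a8 and Slc39a14. All 8 were found by symbol and all 8 passed the expression filter. The set was chosen partly on measured values of these libraries, since the high Mt3 level after 3 d of RANKL was known beforehand. The difference between the 3 d RANKL libraries and the control libraries is therefore given for these genes as a description without a test, as is the difference in Mt3 between RANKL and LPS at 3 d.

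RNA was sequenced from bone marrow-derived macrophages (BMDMs) of wild-type C57BL/6 mice, cultured with M-CSF, the growth factor that keeps macrophage precursors alive. The 15 libraries form 5 groups of 3. The Control group received M-CSF alone, and the other groups received M-CSF with RANKL for 4 h, RANKL for 3 d, LPS for 4 h or LPS for 3 d. RANKL is the cytokine that drives macrophage precursors to become bone-resorbing osteoclasts, and LPS is the bacterial lipopolysaccharide used as an inflammatory stimulus, so the design asks which transcripts respond to one stimulus and not to the other. The labels name 3 d of M-CSF culture and 1 Control group, with no separate Control for each time of stimulation, so a difference between a 3 d group and Control cannot be told apart from time in culture. The cells were primary macrophage cultures, and the labels do not say whether replicates came from separate mice or cultures, so p-values measure the spread between these libraries. A gene expression level was recorded as FPKM (fragments per kilobase of exon, scaled to the mapped fragments of the library), which allows levels of different genes to be compared per length.

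Metallothioneins are small, cysteine-rich proteins that bind zinc and copper in the cytosol. When free zinc rises, the transcription factor MTF1 binds metal response elements (MREs) in promoters, and the classical targets of MTF1 are Mt1, Mt2 and Slc30a1. ZIP transporters (Slc39 genes) bring zinc into the cytosol and ZnT transporters (Slc30 genes) move it out of the cell or into vesicles. Macrophages are known to shift zinc between these pools when they meet bacterial products.

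The letters upstream of Mt1, Mt2, Slc30a1 and Mt3 are shown because the first 3 are textbook MTF1 targets and Mt3 had the largest difference after RANKL. The sequences are the 250 bases before each transcription start in the RefSeq promoter table (GRCm38.p6, plus strand, 5' to 3'). Capitals mark matches to the MRE core, searched as TGCACNC or TGCGCNC on both strands, so that a match on the minus strand appears as its reverse complement.
Mt1 (chr8:94178839-94179088): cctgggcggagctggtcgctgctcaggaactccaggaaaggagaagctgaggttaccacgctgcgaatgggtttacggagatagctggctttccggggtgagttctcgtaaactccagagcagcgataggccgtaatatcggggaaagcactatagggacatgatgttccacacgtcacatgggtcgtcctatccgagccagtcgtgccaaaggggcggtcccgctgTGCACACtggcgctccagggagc
Mt2 (chr8:94172368-94172617): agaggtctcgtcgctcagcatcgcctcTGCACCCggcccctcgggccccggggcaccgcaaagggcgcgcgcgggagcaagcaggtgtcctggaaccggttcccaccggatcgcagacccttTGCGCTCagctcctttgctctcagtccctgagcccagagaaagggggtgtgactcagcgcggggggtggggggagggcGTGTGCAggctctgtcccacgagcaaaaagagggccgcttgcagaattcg
Slc30a1 (chr1:191906531-191906780): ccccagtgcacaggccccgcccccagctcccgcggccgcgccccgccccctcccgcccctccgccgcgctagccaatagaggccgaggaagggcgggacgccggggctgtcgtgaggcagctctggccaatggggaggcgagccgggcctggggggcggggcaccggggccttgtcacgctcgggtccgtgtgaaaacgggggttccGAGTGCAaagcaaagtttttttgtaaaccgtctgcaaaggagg
Mt3 (chr8:94152357-94152606): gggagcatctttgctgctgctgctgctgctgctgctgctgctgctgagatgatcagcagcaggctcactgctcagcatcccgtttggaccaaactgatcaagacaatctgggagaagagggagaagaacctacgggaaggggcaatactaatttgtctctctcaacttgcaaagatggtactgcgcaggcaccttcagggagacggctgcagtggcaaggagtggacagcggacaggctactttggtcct

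The search covered these bases and the 50 bases after each start. Mt1 had 3 matches, whose first bases lay at -23, 3 and 21 from the start, where 1 is the first transcribed base of the promoter table. That start is 7 bases after the GENCODE gene start for Mt1, 14 after it for Slc30a1, 46 before it for Mt2 and the same for Mt3. The GENCODE gene start is the outermost of all transcripts of a gene, 3 of them for Mt1, so a transcript may start further downstream. The positions depend on the annotation, and the start used in these cells was not measured. For Mt1 the matches at 3 and 21 may thus lie before the start used, and matches further downstream were outside the search. Mt2 had 4 matches, at -223, -128, -50 and 5, the last 2 of them on the minus strand. Slc30a1 had 2 matches, at -43 and 31, both on the minus strand, whereas Mt3 had 1, at 28. Among 32851 mouse promoter windows of the same length, 25.7% held at least 1 match, 7.11% at least 2, 1.97% at least 3 and 0.517% at least 4. The windows of Mtf1 and Slc39a1 held none, and 1 of the 2 windows of Slc39a8 held 1 match. A match is a run of letters and was not tested as a binding site. Slc39a14 was named in none of the promoter entries used here. In the expression table the rows of Mt1, Slc30a1 and Slc39a8 cite a predicted RefSeq transcript and those of the other 5 genes a curated one.

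Mt3, Mt2 and Mt1 lie in this order on the plus strand of chromosome 8 (GRCm38, GENCODE M21), at chr8:94152607-94154146, chr8:94172664-94173568 and chr8:94179082-94180327. Mt2 and Mt1 are separated by 5513 bases, and Mt3 and Mt2 by 18517 bases. Over their coding sequences Mt1 and Mt2 were 79.6% identical. Mt1 and Mt3 were 66.2% identical and Mt2 and Mt3 67.6% identical. Over whole transcripts the longest shared run was 20 bases for Mt1 and Mt2, 27 for Mt1 and Mt3 and 20 for Mt2 and Mt3. Mtf1 lies at chr4:124802104-124849800, Slc30a1 at chr1:191906767-191913247, Slc39a1 at chr3:90248172-90253612 and Slc39a8 at chr3:135825279-135888572, all on the plus strand, and Slc39a14 lies at chr14:70303469-70351425 on the minus strand. Mt2, Mtf1, Slc30a1 and Slc39a8 overlap other annotated genes, and fragments from the shared stretches could not be assigned here.

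The libraries were similar in depth, with 18120376 to 20078029 fragments recovered over the listed genes. Macrophage markers were present in every library. The osteoclast marker sum was 1721 to 5474 FPKM after 3 d of RANKL and 154 to 362 FPKM elsewhere. The LPS response sum was 11275 to 17944 FPKM with LPS and 83.0 to 1063 FPKM without it. By these sums LPS at both times and RANKL at 3 d match the labels. In Control replicates 1 to 3 the LPS response sum was 1063, 517 and 219 FPKM. After 3 d of LPS 8 of its 10 markers were called higher by limma, beside 13.0% of all genes. Saa3 averaged 9716 FPKM there, whereas Cxcl10 was at 9.49 FPKM against 49.9 FPKM in Control. The osteoclast sum after 4 h of RANKL, 154 to 267 FPKM, overlapped the 155 to 280 FPKM of Control. Sums for B cell, T cell, basophil and mast cell, and erythroid markers were 0.491 to 20.6, 0.356 to 3.63, 0.473 to 66.0 and 0.0250 to 14.4 FPKM. One library stood apart before any result. Replicate 3 of the LPS 3 d group had a macrophage marker sum of 17491 FPKM against 6086 and 7876 FPKM in replicates 1 and 2, and a stromal marker sum of 552 FPKM against 121 and 145 FPKM. Calls of the 8 genes that change without it are given beside the results. In bulk RNA such as this, fewer cells of a type cannot be told apart from less RNA per cell.

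**Figure D1:**
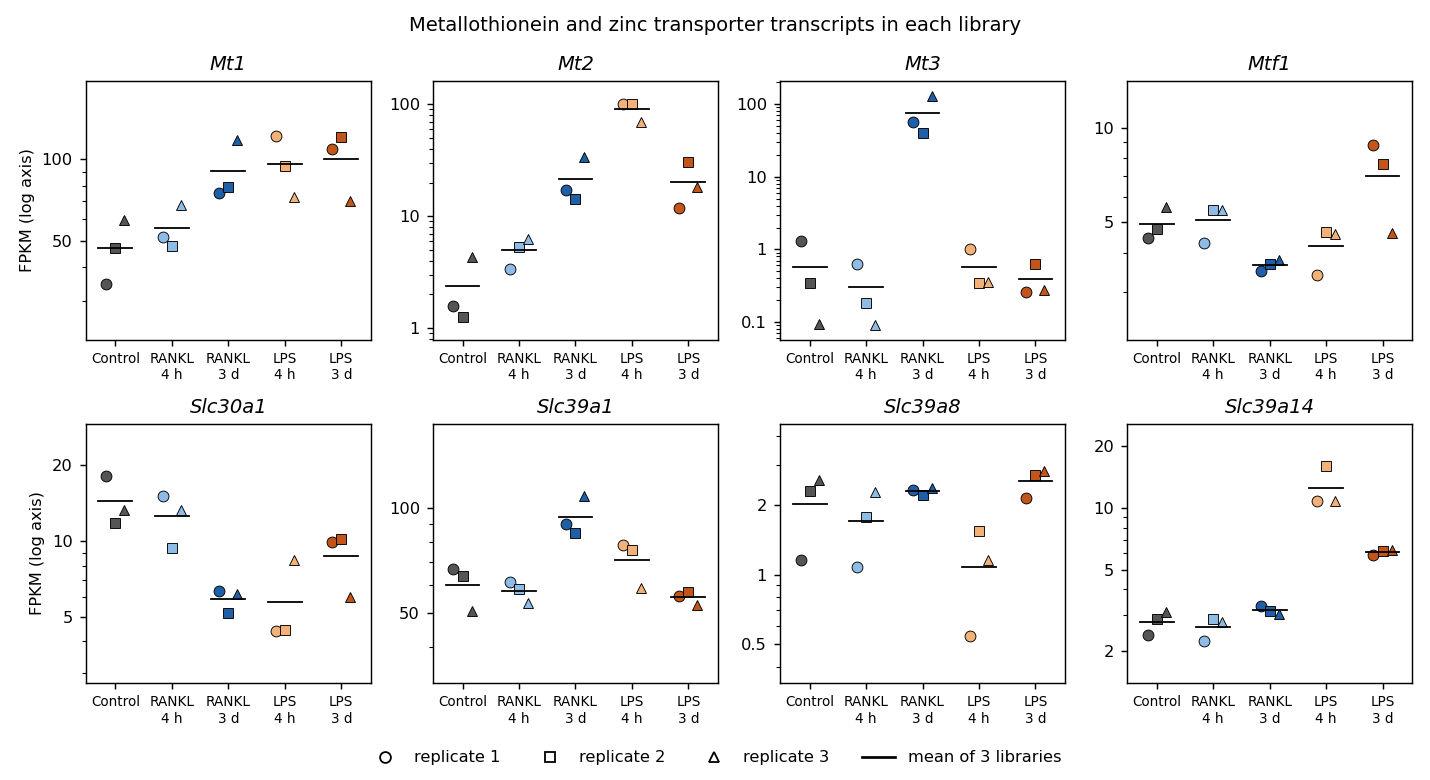
FPKM of each of the 8 genes (log axis) in the 15 libraries by group, with circles, squares and triangles for replicates 1, 2 and 3 and a bar for the group mean. Mt3 lies between 40.2 and 130 FPKM after 3 d of RANKL and at or below 1.30 FPKM in the other libraries, whereas Mt2 and Slc39a14 are highest after 4 h of LPS.

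The 3 expressed metallothioneins had different patterns. Mt1 was abundant in unstimulated cells and stood at 1.93 to 2.13 times its Control mean in every group except RANKL 4 h. Mt2 went from a low level to an FPKM near that of Mt1 within 4 h of LPS, and Mt3 was high after 3 d of RANKL. Mt4, the fourth gene of the cluster and known from stratified epithelium, was listed at 0 in all 15 libraries.

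Mt1 was at 34.5, 47.0 and 59.7 FPKM in Control replicates 1 to 3 and at 51.8, 48.0 and 67.8 FPKM after 4 h of RANKL. It was at 75.3, 79.2 and 118 FPKM after 3 d of RANKL. With LPS it was at 122, 94.9 and 72.8 FPKM after 4 h and at 109, 121 and 70.1 FPKM after 3 d. The RANKL 4 h values overlapped Control, and each library of the other groups was above the highest Control library. The means (± SD) were 47.1 ± 12.6, 55.9 ± 10.5, 90.9 ± 23.7, 96.5 ± 24.6 and 100.2 ± 26.7 FPKM (n = 3 each) in Control, RANKL 4 h, RANKL 3 d, LPS 4 h and LPS 3 d, and the ranges of the last 3 groups overlapped.

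Mt2 was at 1.59, 1.27 and 4.32 FPKM in Control and at 3.40, 5.34 and 6.22 FPKM after 4 h of RANKL. It was at 17.3, 14.2 and 33.5 FPKM after 3 d of RANKL, close to the 11.8, 30.4 and 18.4 FPKM after 3 d of LPS. The 4 h LPS libraries held 101, 101 and 69.3 FPKM. These were above all others and the 3 d libraries of both stimuli shared one range below them. Only 15 to 48 fragments stood behind each Control value, so counting error adds to the spread of Mt2 there.

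Mt3, a metallothionein best known from brain, was near the detection floor outside the 3 d RANKL group. Control held 1.30, 0.349 and 0.0929 FPKM, from 15, 4 and 1 fragments. The RANKL 4 h libraries held 0.631, 0.181 and 0.0918 FPKM, the LPS 4 h libraries 0.997, 0.346 and 0.350 FPKM and the LPS 3 d libraries 0.262, 0.632 and 0.279 FPKM, with at most 11 fragments in any of these. The 3 d RANKL libraries held 57.2, 40.2 and 130 FPKM, from 602, 444 and 1411 fragments, and did not overlap any other group. By the mean over libraries Mt3 ranked 797 among the genes of the 3 d RANKL group and 9920 among those of Control.

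Counted together, the 3 metallothioneins summed to 37.4 to 64.1 FPKM in Control and 53.5 to 74.1 FPKM after 4 h of RANKL. The sum was 134 to 282 FPKM after 3 d of RANKL, 142 to 224 FPKM after 4 h of LPS and 88.8 to 152 FPKM after 3 d of LPS. The ranges of the last 3 groups lay above those of the first pair and overlapped each other, and the LPS 3 d range was the lowest of these 3 at both ends. Mt1 made up 92.3% to 96.7% of the sum in Control. Mt2 made up 45.1% to 51.4% of it after 4 h of LPS, and the ratio of Mt2 to Mt1 was 0.828 to 1.06 against 0.0269 to 0.0723 in Control. Such shares and ratios depend on the transcript lengths behind FPKM. In fragments, replicates 1 to 3 of LPS 4 h held 1899, 1547 and 1174 for Mt1 and 1150, 1203 and 818 for Mt2. Mt3 made up 30.1% to 46.1% after 3 d of RANKL, where the ratio of Mt2 to Mt1 was 0.179 to 0.283. With 3 d of LPS that ratio was 0.108 to 0.262 and Mt3 made up at most 0.415%.

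**Figure D2:**
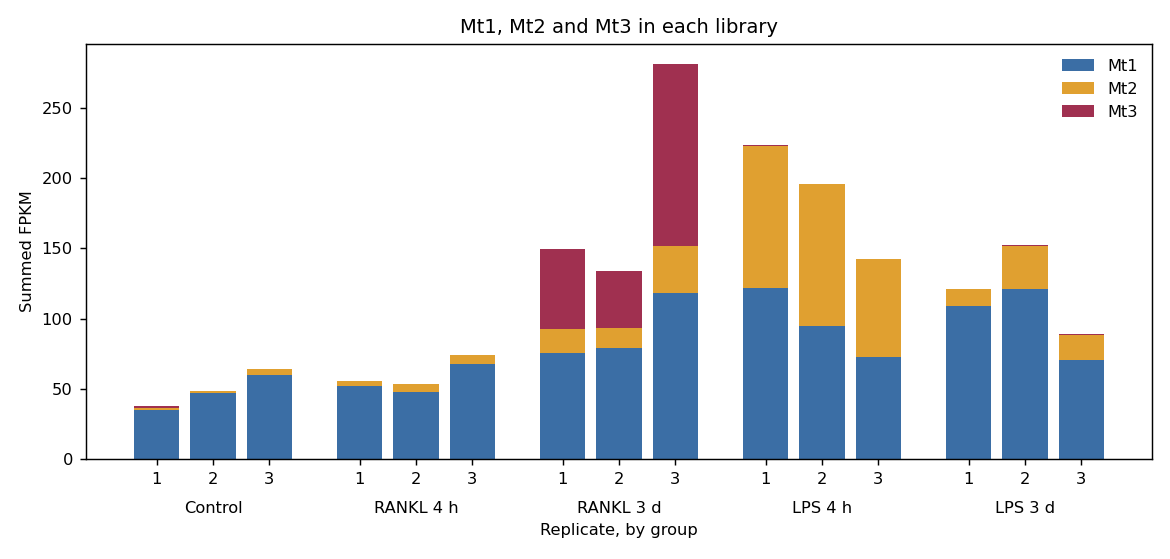
Summed FPKM of Mt1, Mt2 and Mt3 in each library, as stacked bars that start at 0, ordered by group and replicate. Mt1 fills nearly the whole bar in Control, Mt2 adds 45.1% to 51.4% after 4 h of LPS, and Mt3 adds 30.1% to 46.1% after 3 d of RANKL.

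Among the regulator and the transporters, Slc39a14 was highest with LPS, Slc39a1 was highest after 3 d of RANKL, and Slc30a1 was below every Control library in all groups but RANKL 4 h. Mtf1, which encodes the zinc sensor itself, was at 4.46, 4.77 and 5.60 FPKM in Control and at 4.29, 5.47 and 5.48 FPKM after 4 h of RANKL. It was at 3.50, 3.69 and 3.78 FPKM after 3 d of RANKL, 3.39, 4.64 and 4.57 FPKM after 4 h of LPS and 8.79, 7.64 and 4.61 FPKM after 3 d of LPS. The 3 d RANKL libraries lay below each Control library, and replicate 3 of LPS 3 d, the library that stood apart, was within the Control range while the other 2 were above it.

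Slc30a1 encodes ZnT1, the zinc exporter of the plasma membrane. It was at 18.2, 11.8 and 13.4 FPKM in Control and at 15.1, 9.39 and 13.3 FPKM after 4 h of RANKL. It was at 6.31, 5.18 and 6.15 FPKM after 3 d of RANKL, 4.38, 4.45 and 8.40 FPKM after 4 h of LPS and 9.91, 10.2 and 5.98 FPKM after 3 d of LPS. Each library of these last 3 groups was below the lowest Control library, whereas the RANKL 4 h libraries overlapped Control.

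Slc39a1 encodes ZIP1, a widely expressed importer, and was the most abundant zinc transporter among these genes. It was at 66.7, 63.6 and 50.7 FPKM in Control, 61.3, 58.5 and 53.4 FPKM after 4 h of RANKL and 78.4, 75.5 and 58.8 FPKM after 4 h of LPS. After 3 d it was at 89.5, 84.5 and 108 FPKM with RANKL and 56.1, 57.3 and 52.9 FPKM with LPS. The 3 d RANKL libraries were above all 12 others.

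Slc39a14 and Slc39a8 encode ZIP14 and ZIP8, related importers that carry zinc, manganese and iron. Slc39a14 was at 2.40, 2.86 and 3.10 FPKM in Control, 2.24, 2.88 and 2.77 FPKM after 4 h of RANKL and 3.30, 3.14 and 3.05 FPKM after 3 d of RANKL. It was at 10.8, 16.0 and 10.8 FPKM after 4 h of LPS and 5.90, 6.17 and 6.26 FPKM after 3 d of LPS. The order LPS 4 h, LPS 3 d and then all other groups held without overlap. Slc39a8 was at 1.16, 2.31 and 2.58 FPKM in Control and 1.08, 1.78 and 2.28 FPKM after 4 h of RANKL, and at 2.32, 2.23 and 2.38 FPKM after 3 d of RANKL. It was at 0.544, 1.55 and 1.16 FPKM after 4 h of LPS and 2.14, 2.70 and 2.81 FPKM after 3 d of LPS. In Control, RANKL 4 h, LPS 4 h and LPS 3 d its lowest library was replicate 1. The ratio of Slc39a14 to Slc39a8 was 1.20 to 2.07 in Control and 9.34 to 19.8 after 4 h of LPS, without overlap.

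Each group was then compared with Control, and the stimuli with each other, by limma on log2(FPKM + 0.1) over 11743 genes. A gene was called when its fold change was above 1.5 or below 0.66 with a Benjamini-Hochberg adjusted p below 0.05. The comparisons with Control share the same 3 Control libraries. After 4 h of LPS the median gene fell by 0.52 on the log2 scale, and the median gene was 0.52 higher in LPS 3 d than in LPS 4 h and 0.53 higher in RANKL 4 h than in LPS 4 h, so directions of small changes in these comparisons are also given with each library centred on its median gene. In the 3 d comparisons the median gene was 0.16 higher with RANKL and 0.08 higher with LPS than in Control. These are medians of the fold changes. Values given as centred, or relative to the median gene, were instead fitted after each library's own median log2 level was subtracted, and those medians differed by -0.57 between LPS 4 h and Control, 0.65 between LPS 3 d and LPS 4 h, 0.57 between RANKL 4 h and LPS 4 h, 0.22 between RANKL 3 d and Control, 0.08 between LPS 3 d and Control and 0.14 between RANKL 3 d and LPS 3 d.

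**Figure D3:**
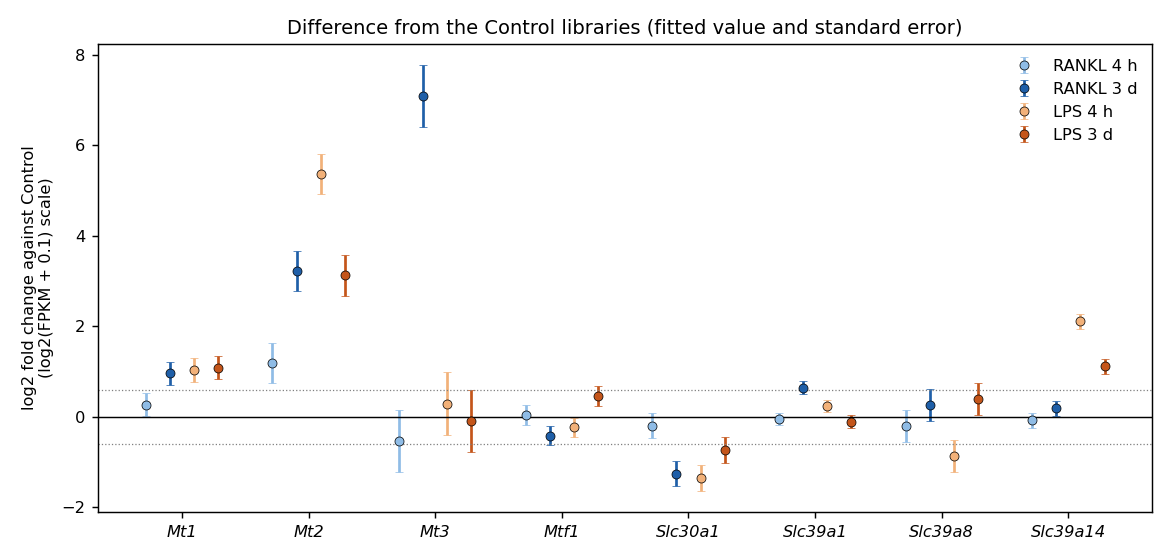
Fitted log2 fold change of each of the 8 genes against Control (points) with its standard error (bars) in the RANKL 4 h, RANKL 3 d, LPS 4 h and LPS 3 d groups, and dotted lines at the fold limits of 1.5 and 0.66. Mt2 stands at 5.36 after 4 h of LPS and Mt3 at 7.08 after 3 d of RANKL, whereas Slc30a1 lies below 0 in all groups.

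After 4 h of LPS, 3 of the 8 genes rose (Mt1, Mt2 and Slc39a14) and 2 fell (Slc30a1 and Slc39a8). Over all tested genes 8.43% were called higher and 39.7% lower (990 and 4660 genes, or 1871 and 1529 when libraries were centred on the median gene). Mt2 rose 37.8 times by the ratio of means, a log2 fold change of 5.36 (SE 0.45, limma adjusted p = 4.97e-07). Slc39a14 rose by 2.11 (SE 0.17, limma adjusted p = 3.65e-07) and Mt1 by 1.04 (SE 0.26, limma adjusted p = 0.00399), each higher in 3 of 3 libraries than in any Control library.

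Slc30a1 fell by 1.36 on the log2 scale after 4 h of LPS (SE 0.28, limma adjusted p = 0.000901). Relative to the median gene it fell by 0.79. Slc39a8 fell by 0.87 (SE 0.36, limma adjusted p = 0.0482), but its libraries overlapped Control, relative to the median gene the difference was -0.31, and the call was lost in 18 of 26 other settings, among them the one without replicate 3 of LPS 3 d (limma adjusted p = 0.0530). Mtf1 had a log2 fold change of -0.24 (SE 0.21), which was 0.33 when centred, and that of Slc39a1 was 0.23 (SE 0.14), which became a called 0.80 when centred. Mt3 had a log2 fold change of 0.29 with an SE of 0.69. A difference was not detectable at 4 to 11 fragments a library after LPS and 1 to 15 in Control.

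After 3 d of LPS, 3 of the 8 genes were higher than in Control (Mt1, Mt2 and Slc39a14) and 0 were called lower by limma, against 13.0% higher and 14.4% lower over all genes. At an unadjusted p below 0.05, 1 of the 8 was lower. Mt2 was 3.12 higher on the log2 scale (SE 0.45, limma adjusted p = 0.000162), Slc39a14 1.11 higher (SE 0.17, limma adjusted p = 0.000266) and Mt1 1.09 higher (SE 0.26, limma adjusted p = 0.00614). Slc30a1 had a log2 fold change of -0.74 (SE 0.28, limma adjusted p = 0.0526) and just missed the threshold. It was called lower in 7 of 26 other settings, among them centring (-0.82, limma adjusted p = 0.0352), a pseudocount of 1 (-0.68, limma adjusted p = 0.0493), recovered fragments (-0.74, limma adjusted p = 0.0443) and without replicate 3 of LPS 4 h (-0.74, limma adjusted p = 0.0277). Without replicate 3 of LPS 3 d it was -0.49 and was not called. Mtf1 had a log2 fold change of 0.45 (SE 0.21, limma adjusted p = 0.117), and without that library it was 0.72 and called (limma adjusted p = 0.00459). The values for Slc39a1, Slc39a8 and Mt3 were -0.11, 0.39 and -0.09.

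The fall from the early LPS level was tested directly. Between 4 h and 3 d of LPS, Mt2 fell by 2.24 on the log2 scale (SE 0.45, limma adjusted p = 0.000542) and Slc39a14 by 0.999 (SE 0.17, limma adjusted p = 0.000151). Mt1 did not follow, with a difference of 0.05 (95% interval from -0.52 to 0.61). Slc39a8 was 1.26 higher at 3 d (SE 0.36, limma adjusted p = 0.00656) and Mtf1 0.69 higher (SE 0.21, limma adjusted p = 0.0114), but over all genes 44.2% were called higher and 13.9% lower. Centred on the median gene (2209 higher and 3224 lower, in place of 5186 and 1631), the difference was 0.61 for Slc39a8, 0.04 for Mtf1 and -0.60 for Mt1, none of them called, and Slc39a1 was called at -0.99. The Mtf1 call was also lost with only the 2 groups (limma adjusted p = 0.0529), without LPS 4 h replicate 1 (0.55, limma adjusted p = 0.0560) and without LPS 3 d replicate 1 (0.50, limma adjusted p = 0.0626). Slc30a1 was 0.62 higher at 3 d (SE 0.28, limma adjusted p = 0.0628) and not called. It was called without replicate 3 of LPS 3 d (0.87, limma adjusted p = 0.0149) or of LPS 4 h (0.92, limma adjusted p = 0.0079) and stood at -0.03 when centred.

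After 4 h of RANKL 0 of the 8 genes were called by limma in either direction. Over all genes 0.111% were called higher and 0.00852% lower. Of the 8 genes Mt2 alone passed an unadjusted p of 0.05, with a log2 fold change of 1.19 (SE 0.45, limma adjusted p = 0.724). The limma test on recovered fragments also called none of the 8.

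At 4 h the stimuli were compared directly, with no Control library in the comparison. Mt2 was 4.17 lower with RANKL than with LPS on the log2 scale (log2 fold change -4.17, SE 0.45, limma adjusted p = 4.25e-06), Slc39a14 2.19 lower (-2.19, SE 0.17, limma adjusted p = 2.45e-07) and Mt1 0.77 lower (-0.77, SE 0.26, limma adjusted p = 0.0209). Slc30a1 was 1.16 higher (SE 0.28, limma adjusted p = 0.00265), which was 0.59 and no longer called relative to the median gene. So 1 of the 8 was higher and 3 were lower, against 41.0% higher and 8.98% lower over all genes (4818 and 1054 genes, or 1580 and 1905 when centred). The Mt1 call was lost without RANKL 4 h replicate 1 (-0.73), RANKL 4 h replicate 2 (-0.67) or LPS 4 h replicate 1 (-0.59). Slc39a8 differed by 0.66 (SE 0.36, limma adjusted p = 0.122), and with the replicate number as a block this difference was called (limma adjusted p = 0.0337), as it was without RANKL 4 h replicate 1 (0.94) or LPS 4 h replicate 2 (0.95).

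After 3 d of RANKL, the comparison known when the genes were chosen, the fitted differences from Control were 7.08 for Mt3 (SE 0.69), 3.23 for Mt2 (SE 0.45) and 0.95 for Mt1 (SE 0.26). That of Mt3 depended on the pseudocount, and was 5.50 with a pseudocount of 1, with 1 to 15 fragments behind each Control value. Slc30a1 stood at -1.26 (SE 0.28), Slc39a1 at 0.64 (SE 0.14) and Mtf1 at -0.42 (SE 0.21). Slc39a8 at 0.26 (SE 0.36) and Slc39a14 at 0.18 (SE 0.17) overlapped Control. Thus 5 of the 8 genes (Mt1, Mt2, Mt3, Slc30a1 and Slc39a1) were past the fold limits. Over all genes 16.6% were called higher and 7.54% lower in this comparison (1951 and 886 genes, or 1167 and 1428 when centred), and the count of 5 is not read against these shares. Centred on the median gene, Slc39a1 stood at 0.42, inside the fold limits, Mtf1 at -0.64, past the lower one, and Slc39a14 at -0.04.

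Other marker lists moved in the same libraries. After 3 d of RANKL, 9 of 10 osteoclast markers and 8 of 12 stromal markers were called higher, beside 16.6% of all genes. The stromal sum was 459 to 2113 FPKM in this group against 167 to 343 FPKM in Control. All 12 stromal markers were detected in both groups, and Lum alone was listed at 0 in 1 library of each. Among the others Col1a2 went from 56.8 to 300.1 FPKM and Pdgfrb from 1.89 to 4.48 FPKM, whereas Dcn was at 1.63 FPKM in Control and 0.70 FPKM after RANKL. Within the RANKL 3 d group replicate 3 had the highest Mt1, Mt2, Mt3 and Slc39a1, the highest osteoclast sum (5474 FPKM) and the lowest stromal sum (459 FPKM). In Control, RANKL 4 h and LPS 4 h the highest Mt3 value was in replicate 1, from 15, 7 and 11 fragments. The stromal sum was also highest there. So were the osteoclast, LPS response, granulocyte, B cell, T cell, basophil and mast cell, and erythroid sums, so this order was not particular to stromal markers. The granulocyte marker sum was 460 to 2097 FPKM after 3 d of RANKL and 8.27 to 201 FPKM after 3 d of LPS. It was 2433 to 6353 FPKM in Control. With RANKL 4 of 9 of these markers were called lower and with LPS 9 of 9, beside 7.54% and 14.4% of all genes. The part of these lists in the results was not tested.

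At 3 d the stimuli were compared directly. Mt1 and Mt2 did not differ detectably between RANKL and LPS, with differences of -0.13 (95% interval from -0.70 to 0.43) and 0.10 (95% interval from -0.85 to 1.06). Mt3 was 7.17 higher with RANKL (SE 0.69), given as a description. Slc39a1 was 0.75 higher with RANKL (SE 0.14, limma adjusted p = 0.000604), Mtf1 0.87 lower (log2 fold change -0.87, SE 0.21, limma adjusted p = 0.00478) and Slc39a14 0.93 lower (-0.93, SE 0.17, limma adjusted p = 0.000577). Thus 1 of the 7 genes tested was higher and 2 were lower, against 23.3% higher and 12.8% lower over all genes (2739 and 1506 genes, or 2237 and 2045 when centred). Slc30a1 differed by -0.52 (SE 0.28, limma adjusted p = 0.139). Without replicate 3 of LPS 3 d it differed by -0.77 and was called (limma adjusted p = 0.0349), and the calls for Slc39a1 (0.72), Mtf1 (-1.14) and Slc39a14 (-0.91) held.

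The other zinc transporters gave a wider view of import and export. Of 11 further ZIP genes 10 passed the filter. After 4 h of LPS 6 of them fell and 0 rose by limma, beside 39.7% and 8.43% of all genes. At an unadjusted p below 0.05 the counts were also 6 and 0. The list median was -0.65 beside -0.52 for all genes. Slc39a10, a plasma membrane importer, fell most, by 1.59 (SE 0.21, limma adjusted p = 3.38e-05) and by 1.03 relative to the median gene. The other 5 (Slc39a3, Slc39a6, Slc39a7, Slc39a9 and Slc39a11) fell by 0.61 to 0.76, which was between -0.05 and -0.19 relative to the median gene. Of the 13 ZIP genes tested in that comparison Slc39a14 alone was called higher, joined by Slc39a1 when libraries were centred.

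After 3 d some of the ZIP genes differed between the stimuli. Slc39a4, known for zinc uptake in the intestine, was higher than in Control with both stimuli. With LPS it was at 11.3 against 2.91 FPKM (log2 fold change 1.92, SE 0.30, limma adjusted p = 0.000311). With RANKL it was at 5.04 FPKM (0.83, SE 0.30, limma adjusted p = 0.0492), which was 0.61 relative to the median gene. Slc39a13, whose loss is known to impair connective tissue, was higher with RANKL (12.6 against 4.19 FPKM, 1.54, SE 0.18, limma adjusted p = 5.02e-05) and with LPS (7.11 FPKM, 0.74, SE 0.18, limma adjusted p = 0.00551). Compared directly, Slc39a13 was 0.79 higher with RANKL than with LPS (limma adjusted p = 0.00247) and Slc39a4 1.09 lower (-1.09, limma adjusted p = 0.00905). In all, 2 of 10 ZIP genes were higher after 3 d of RANKL and 0 lower by limma, beside 16.6% and 7.54% of all genes. At an unadjusted p below 0.05 these counts were 3 and 2, and the list median was 0.12. With LPS for 3 d 3 were higher and 1 (Slc39a10) was lower, beside 13.0% and 14.4% of all genes (list median 0.26). Compared with LPS at 3 d, 3 of the 10 were higher with RANKL and 2 lower, beside 23.3% and 12.8% of all genes. After 4 h of RANKL 0 of all these further genes were called by limma, beside 0.111% higher and 0.00852% lower over all genes. There 1 ZIP gene, Slc39a10, and Cebpa, linked to MTF1, had an unadjusted p below 0.05.

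Of 9 further ZnT genes 5 passed the filter, and the list median was 0.12 after 4 h of LPS, 0.41 after 3 d of RANKL and 0.23 after 3 d of LPS. Slc30a4, which loads vesicles with zinc, rose after 4 h of LPS by 1.01 (SE 0.26, limma adjusted p = 0.00465), and was higher after 3 d of RANKL by 1.13 (SE 0.26, limma adjusted p = 0.00591). Slc30a9, a mitochondrial zinc transporter, was higher after 3 d of RANKL by 0.68 and after 3 d of LPS by 0.73. Relative to the median gene these values were 0.46, inside the fold limits, and 0.65. Slc30a6 rose by 0.72 after 4 h of LPS and Slc30a5, its partner in the early secretory pathway, fell by 1.06. Relative to the median gene Slc30a6 stood at 1.29 and Slc30a5 at -0.50, the latter inside the fold limits. Slc30a3, Slc30a8 and Slc30a10 were listed at 0 in all libraries.

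**Figure D4:**
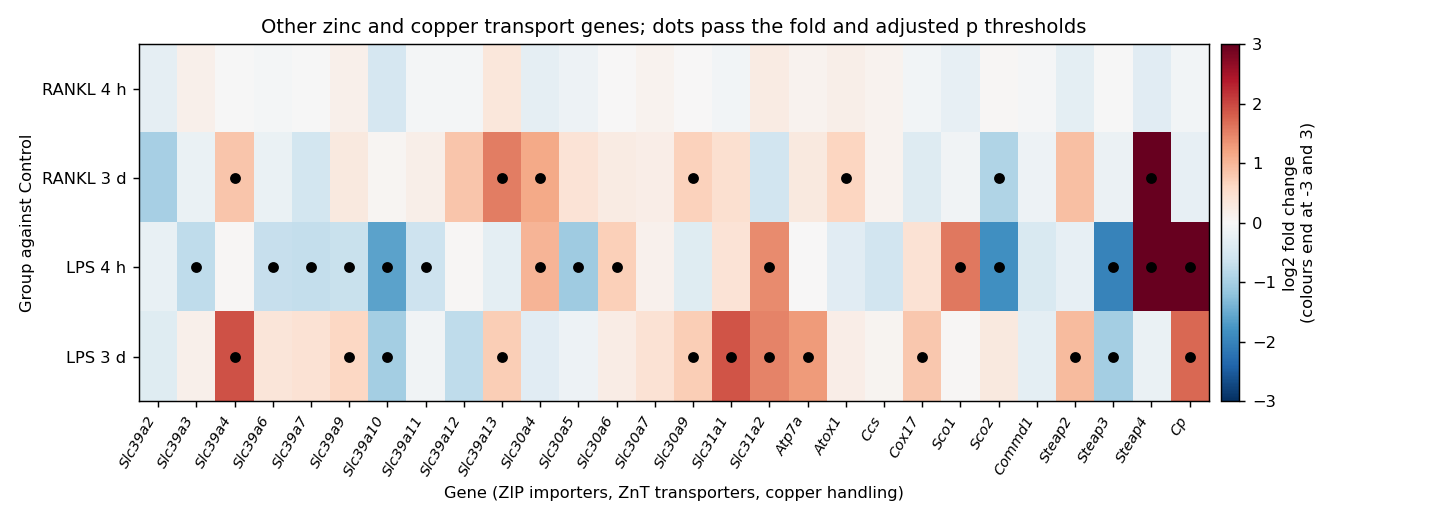
Log2 fold change against Control, as colour, of the further ZIP, ZnT and copper handling genes that passed the filter (columns) in the 4 stimulated groups (rows), with a dot where the fold and adjusted p thresholds were passed. No dot stands in the RANKL 4 h row, 6 ZIP genes are marked lower after 4 h of LPS, and 6 copper genes higher after 3 d of LPS. Over all genes 39.7% were called lower after 4 h of LPS and 13.0% higher after 3 d.

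Metallothioneins also bind copper. Of 14 copper handling genes 13 were tested, and after 3 d of LPS 6 were higher and 1 (Steap3) was lower, with a list median of 0.30, beside 13.0% higher and 14.4% lower over all genes. Slc31a1, the high-affinity copper importer, went from 28.8 to 107 FPKM (log2 fold change 1.89, SE 0.12, limma adjusted p = 6.57e-07), the copper-exporting ATPase Atp7a was 1.28 higher, and Slc31a2 went from 42.0 to 116 FPKM. RANKL for 3 d left 2 higher and 1 (Sco2) lower, with a list median of -0.10, beside 16.6% and 7.54% over all genes. Steap4, a metalloreductase, went from 0.0661 to 5.53 FPKM (4.96, SE 0.37, limma adjusted p = 1.07e-06) and the copper chaperone Atox1 was 0.64 higher. Relative to the median gene Atox1 stood at 0.42, inside the fold limits. The 4 h LPS libraries had 4 of them higher (Cp, Sco1, Slc31a2 and Steap4) and 2 lower (Sco2 and Steap3), beside 8.43% and 39.7% over all genes. Slc31a1 was 1.42 lower with RANKL than with LPS at 3 d (-1.42, limma adjusted p = 1.23e-06).

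Genes linked to MTF1 outside the 8 were listed without a direction of regulation and did not all move the same way. MTF1 activity was not tested. Of Slc39a10, Ndrg1, Gclc and Cebpa, 3 fell after 4 h of LPS (Slc39a10, Gclc and Cebpa), beside 39.7% of all genes. Relative to the median gene Gclc stood at -0.29 there. Of the 4 genes 1 rose after 3 d of RANKL (Ndrg1, from 7.22 to 46.6 FPKM, log2 fold change 2.75, SE 0.27, limma adjusted p = 1.38e-05) and 1 fell (Cebpa, by 1.29), beside 16.6% and 7.54% of all genes, and 1 was lower after 3 d of LPS (Slc39a10), beside 14.4%. The zinc-binding proteins of granulocytes, S100a8 and S100a9, summed to 5488 to 18035 FPKM in Control. After 3 d of LPS they summed to 178, 142 and 1618 FPKM in replicates 1 to 3, the last being the library that stood apart. After 3 d of RANKL they summed to 1444 to 5562 FPKM, which overlapped Control. There S100a8 was called lower (-2.20, SE 0.79, limma adjusted p = 0.0487) and S100a9 was not called. The granulocyte markers above were also lower with both stimuli at 3 d.

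The genes beside the metallothioneins on chromosome 8 moved in both directions. Of 8 neighbours 6 passed the filter. Of these, 0 rose by limma (0 also at an unadjusted p below 0.05) and 3 fell after 4 h of LPS (Bbs2 by 1.15, Ogfod1 by 1.04 and Nup93 by 0.62), beside 8.43% higher and 39.7% lower over all genes. Relative to the median gene these 3 values were -0.59, -0.47 and -0.06. With RANKL for 3 d 2 were higher (Bbs2 by 0.82 and Herpud1 by 0.75) and 0 lower by limma, beside 16.6% and 7.54% over all genes. At an unadjusted p below 0.05 the counts were 3 and 0, and the list median was 0.36. Relative to the median gene Bbs2 stood at 0.60 and Herpud1 at 0.53, the latter inside the fold limits. After 3 d of LPS 1 was lower (Herpud1, -0.97), beside 14.4% over all genes.

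**Figure D5:**
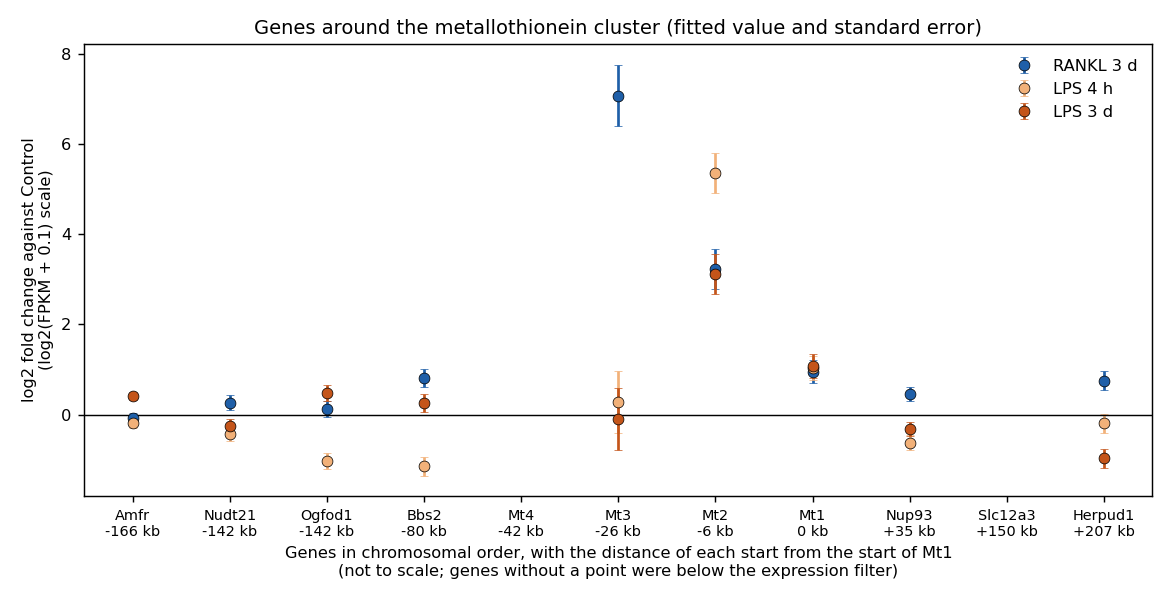
Fitted log2 fold change against Control with its standard error for the genes around the metallothionein cluster, in chromosomal order and not to scale, after 3 d of RANKL, 4 h of LPS and 3 d of LPS. Mt3 at 7.08 after RANKL and Mt2 at 5.36 after 4 h of LPS stand apart from flanking genes, whose values lie between -1.15 and 0.82.

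Genes with the most similar patterns were found by the root mean square difference of centred log2(FPKM + 0.1) over the 15 libraries, among 9486 genes averaging 1 FPKM or more. For Mt3 the nearest was Dcstamp, a fusion gene of osteoclasts, at 0.47, followed by Mst1r at 0.78 and Kbtbd11 at 0.87, beside a deviation of Mt3 itself of 2.99. For Mt2 the nearest were Traf1, Rnd3 and Nfkbia, at 0.77 to 0.78, beside 1.92. For Slc39a14 they were Ebi3, N4bp1 and Mapkbp1, at 0.25 to 0.27, beside 0.85. For Mt1 they were Map4k4, Fzd5 and Rdh11, at 0.26 to 0.28, beside 0.54. For Slc30a1 they were Ap5b1, Bid and Arid3b, at 0.30 to 0.33, beside 0.63. For Slc39a1 they were Fam133b, Acot7 and Tspyl1, for Mtf1 Papd5, Smg8 and Srf, and for Slc39a8 Tnks, Tmem131 and Trrap, each at 0.12 to 0.20. These are descriptions of patterns that share the same libraries.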

How the data were processed

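RNA-seq libraries of the 15 BMDM samples were grouped by the treatment in their titles. The authors deposited 1 table of FPKM values per gene and library, which they estimated with StringTie and Ballgown on GRCm38.p4 (mm10). The aligner and annotation are not given in the sources used here. FPKM are not counts, although 99.99% of values over 14484 genes were whole multiples (within 0.01) of what 1 fragment is worth, so fragments were recovered for an alternative test. The table's last row is incomplete, and genes after it were not analysed here.

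Values were taken as log2(FPKM + 0.1) for the 11743 genes averaging 0.1 FPKM or more and fitted over all 5 groups with limma 3.58.1 (lmFit, eBayes with trend, R 4.3.3), with Benjamini-Hochberg adjustment over all tested genes. The fold limits of 1.5 and 0.66 follow the study's methods, which used an unadjusted p. The scripts were tested on simulated data. With values simulated for RANKL 4 h against Control, 61 of 100 genes changed 2-fold and 96 of 100 changed 4-fold were called. Of 11543 unchanged genes 8 were called. The simulated noise was independent between libraries, and the changed genes averaged above 1 FPKM. Deviations shared by libraries of the same replicate number were thus not simulated, and changes in genes at or below that level were not tried. Fragment intervals would cover counting error only.

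The 8 genes, the wider lists (further ZIP and ZnT genes, copper handling, S100 proteins, MTF1-linked genes, neighbours) and the marker lists were chosen with earlier results of these data known. Named genes are the 8, Mt4, wider-list genes called in a comparison, and the 3 genes nearest in pattern to each of the 8. Cebpa and Slc39a10 after 4 h of RANKL were named because they make up a small count. Promoter letters came from RefSeq, where 7 of the 8 genes matched, and positions from GENCODE M21 for GRCm38, the build of the table.

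Replicate numbers were checked for pairing by the correlation of same-numbered deviations from group means over 9486 genes. All 3 correlations passed 0.1 for RANKL 4 h and Control (0.707 to 0.842) and RANKL 3 d and Control (0.136 to 0.318). They also did for LPS 4 h and Control (0.440 to 0.624) and RANKL 4 h and LPS 4 h (0.555 to 0.692). By this rule these comparisons were paired. The rule was not met for LPS 3 d and Control (lowest -0.03), RANKL 3 d and LPS 3 d (lowest -0.23) or LPS 3 d and LPS 4 h (lowest -0.15). The main fit had no term for the replicate number, so its p-values leave the pairing out. Only the replicate block, an alternative, used it. No pair of replicates agreed within sampling noise. Alternatives were another pseudocount, other filters, rescaled sums, centring on the median gene, only the 2 groups compared, the replicate block, no variance trend, unadjusted p, limma voom on recovered fragments, and leaving out each library.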

Additional observations from a re-analysis of the deposited data

Results flagged for a closer look

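These results were singled out because the effect of RANKL differed from that of LPS at the same time, by the direct limma test of the difference. At 4 h the log2 difference of RANKL from LPS was -0.77 for Mt1, -4.17 for Mt2, -2.19 for Slc39a14 and 1.16 for Slc30a1. Relative to the median gene these were -1.34, -4.74, -2.76 and 0.59, and the last was not called. At 3 d it was -0.87 for Mtf1, 0.75 for Slc39a1 and -0.93 for Slc39a14, and each library of one group lay on one side of the other group for these 3 genes. No cause was tested.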

How the results depend on the processing

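Across the 26 alternatives the rises of Mt1, Mt2 and Slc39a14 after both LPS times, the fall of Slc30a1 after 4 h of LPS, the differences of Mt2 and Slc39a14 between the stimuli at 4 h and those of Mtf1, Slc39a1 and Slc39a14 at 3 d kept their direction and call. With an unadjusted p, 1 of the 8 genes and 1 gene of the wider lists were called after 4 h of RANKL, in place of 0 and 0. Centred on the median gene, 13 wider-list genes in place of 20 were called after 4 h of LPS. All-gene counts after 4 h of RANKL were 14 in the main analysis, 0 with only the 2 groups, 24 with the replicate block, 3 without a variance trend, 301 with an unadjusted p and 1 to 17 without 1 library. The replicate block changed the call for Slc39a8 (0.66, RANKL 4 h against LPS 4 h) and, in a comparison that was not paired, for Slc30a1 (-0.74, LPS 3 d against Control). It changed no other call.

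Centring turned the sign of Mtf1 (0.33, LPS 4 h against Control, and -0.29, RANKL 4 h against LPS 4 h), Mt2 (-0.033, RANKL 3 d against LPS 3 d), Mt1 (-0.60) and Slc30a1 (-0.028, both LPS 3 d against LPS 4 h), none of them called, and Slc39a14 (-0.037, RANKL 3 d against Control, described only), and a pseudocount of 0.01 turned Mt3 (0.021, LPS 3 d against Control). Leaving out 1 library also turned uncalled values. Against Control after 4 h of RANKL these ran from -1.22 to 0.21 for Mt3, -0.033 to 0.15 for Mtf1, -0.34 to 8.66e-05 for Slc30a1, -0.18 to 0.021 for Slc39a1, -0.55 to 0.071 for Slc39a8 and -0.18 to 0.026 for Slc39a14. After 3 d of RANKL Slc39a8 ran from -0.080 to 0.46. Mt3 ran from -0.39 to 1.04 after 4 h of LPS and -0.77 to 0.66 after 3 d of LPS. Between the stimuli at 3 d Mt1 ran from -0.37 to 0.025 and Mt2 from -0.26 to 0.45, and between the LPS times Mt1 ran from -0.14 to 0.29 and Mt3 from -0.71 to 0.052. The causes were not tested. Depth limits Mt3 outside RANKL 3 d and Mt2 in Control.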
